A study of Homo sapiens with 8 samples.

Results

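CCL20 and 9 other genes of inflammatory cytokines were followed on 8 single-colour arrays of ovarian cancer cells in which the RNA-binding protein SFPQ had been silenced. The genes were the chemokines CCL20 (NM_004591), CCL2 (NM_002982), CXCL1 (NM_001511), CXCL2 (NM_002089), CXCL3 (NM_002090), CXCL5 (NM_002994) and CXCL8 (NM_000584), and the interleukins IL6 (NM_000600), IL1A (NM_000575) and IL1B (NM_000576). They were read on the array from all non-control probes whose RefSeq accession belongs to one of these genes, which gave 12 probes of 50599, or 10 of 20503 named genes. CXCL1 and CXCL2 had 2 probes each and the other genes 1. CCL20 was chosen by its difference between silenced and control SKOV3 cells, and the other genes as cytokines of the same inflammatory programme, so the SKOV3 silencing values below are a description with no test.

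MDAH cells and SKOV3 cells, both established epithelial ovarian cancer lines, were each represented by 2 control arrays and 2 arrays of SFPQ-silenced cells. Of the silenced samples of a line, 1 carried the short hairpin RNA sh-SFPQ#2 and 1 carried sh-SFPQ#3, so the spread within a silenced group includes the difference between hairpins. The labels call both controls of a line sh_cnt, while according to the methods a parental sample was run beside an sh-ctrl sample in each line, and which control array is which was not given in the sources used here. The silenced groups hold no repeats of 1 hairpin and, by the methods, the control groups none of 1 construct, so p-values measure only the spread between these arrays, which may also be partly technical. Each value is a signal on the log2 scale after division by the array's 75th percentile, so that 0 is the signal of a fairly bright probe and each step of 1 is a doubling.

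Chemokines are small secreted proteins that draw leucocytes along a gradient. The CXCL members here are neutrophil attractants that share the receptor CXCR2, CCL2 attracts monocytes through CCR2, and CCL20 attracts dendritic cells and T cells through CCR6. IL1A and IL1B start inflammatory signalling through the IL-1 receptor, IL6 acts through IL6R and the signal chain IL6ST, and all of these genes are classic targets of the transcription factor NF-kappaB in epithelial and tumour cells. SFPQ is a nuclear splicing factor and paraspeckle protein that also binds promoters, among them that of CXCL8.

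Sequences around the start of each gene were searched for NF-kappaB letters. RefSeq windows of 300 bases, from 250 before to 50 after the gene's start on the GRCh38.p14 build, were found for 9 of the 10 genes. The window of CCL2 was not used here. Some of them are printed because they hold different forms of the NF-kappaB letters, which stand in capitals. CCL20 lies at chr2:227813592-227813891, plus strand. CXCL1 lies at chr4:73869143-73869442, plus strand, CXCL5 at chr4:73998628-73998927, minus strand and CXCL8 at chr4:73740319-73740618, plus strand. IL6 lies at chr7:22726950-22727249, plus strand.
CCL20: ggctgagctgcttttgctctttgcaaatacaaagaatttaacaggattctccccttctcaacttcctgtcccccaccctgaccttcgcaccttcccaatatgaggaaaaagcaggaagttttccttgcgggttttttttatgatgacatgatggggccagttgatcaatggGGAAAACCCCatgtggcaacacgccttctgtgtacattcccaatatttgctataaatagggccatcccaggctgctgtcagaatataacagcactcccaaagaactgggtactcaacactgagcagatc
CXCL1: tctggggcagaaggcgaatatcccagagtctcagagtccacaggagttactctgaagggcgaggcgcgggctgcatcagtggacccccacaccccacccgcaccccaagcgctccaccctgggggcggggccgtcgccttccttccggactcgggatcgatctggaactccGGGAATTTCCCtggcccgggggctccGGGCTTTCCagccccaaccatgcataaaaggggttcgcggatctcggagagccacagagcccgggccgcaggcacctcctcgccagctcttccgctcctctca
CXCL5: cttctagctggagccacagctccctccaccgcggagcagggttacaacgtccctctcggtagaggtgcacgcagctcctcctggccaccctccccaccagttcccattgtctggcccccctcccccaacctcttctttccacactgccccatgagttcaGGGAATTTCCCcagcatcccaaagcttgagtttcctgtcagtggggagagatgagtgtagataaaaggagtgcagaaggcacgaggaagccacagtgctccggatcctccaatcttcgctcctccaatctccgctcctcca
CXCL8: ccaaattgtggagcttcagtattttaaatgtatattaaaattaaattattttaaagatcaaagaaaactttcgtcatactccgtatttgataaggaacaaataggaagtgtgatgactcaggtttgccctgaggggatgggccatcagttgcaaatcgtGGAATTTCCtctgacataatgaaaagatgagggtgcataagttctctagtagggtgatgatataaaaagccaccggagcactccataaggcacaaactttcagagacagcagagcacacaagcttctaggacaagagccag
IL6: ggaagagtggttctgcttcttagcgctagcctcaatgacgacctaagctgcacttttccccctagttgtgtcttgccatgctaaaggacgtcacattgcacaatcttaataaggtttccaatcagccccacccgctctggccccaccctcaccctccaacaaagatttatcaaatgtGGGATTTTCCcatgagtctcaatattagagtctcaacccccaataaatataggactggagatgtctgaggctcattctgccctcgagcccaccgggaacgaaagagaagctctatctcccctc

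The NF-kappaB consensus of 10 letters was found on either strand in 6 of the 9 windows, those of CCL20, CXCL1, CXCL2, CXCL3, CXCL5 and IL6, against 11.3% of the 35114 windows of the same length in the RefSeq table. In CCL20 the match began 79 bases before the start and read ggggttttcc on the opposite strand. CXCL1, CXCL2, CXCL3 and CXCL5 shared gggaatttcc, and IL6 held gggattttcc. CXCL8 has no match to the full consensus, but a shorter pattern that was added after its window had been seen, GGNNTTTCC, overlaps the consensus and was held by it and the 6 others, against 6.26% of all windows. The windows of IL1A and IL1B held neither pattern. The AP-1 letters TGANTCA were found in CXCL8 and IL1A (7.71% of all windows) and the TATA box letters TATAAA in CCL20 and CXCL8 (11.5%). CXCL8, CXCL1, CXCL5, CXCL3 and CXCL2 lie near each other on chromosome 4, with the windows of CXCL3 at chr4:74038640-74038939, minus strand and of CXCL2 at chr4:74099146-74099445, minus strand. These matches are letters in a window and were not tested as binding sites.

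The arrays shared 1 slide and 1 scan, with each line in a row of its own, so position on the slide and line or group cannot be told apart. The 75th percentile of the processed signal ranged from 244 to 496 between arrays and 47.7 to 57.0% of probes were well above background. SFPQ itself fell by 1.50 on the log2 scale in MDAH (limma, adjusted p = 0.0328) and by 2.01 in SKOV3 (limma, adjusted p = 0.0299). Of 8 epithelial markers, 7 or 8 were well above background on each array. Of 9 leucocyte markers 4 or 5 were, and their summed signal, relative to the array's 75th percentile, was 3.41 and 4.23 in MDAH controls, 6.30 and 6.87 in silenced MDAH, 2.13 and 3.12 in SKOV3 controls and 3.19 and 2.41 in silenced SKOV3, against 373 to 620 for the epithelial markers. Within the leucocyte list, the difference in MDAH was 1.08 for CD68, a lysosomal protein that is not restricted to leucocytes, but -0.18 for the pan-leucocyte marker PTPRC and -0.02 for CD14, while CD3E, MS4A1 and CSF1R were not well above background on any array. Of 6 fibroblast markers 1 to 3 were well above background, and their summed signal was 0.591 and 0.710 in MDAH controls, 1.21 and 1.61 in silenced MDAH, 0.415 and 0.282 in SKOV3 controls and 0.743 and 0.887 in silenced SKOV3. Among these, COL1A1 differed by 1.14 in MDAH and 1.23 in SKOV3. DCN, well above background on 4 arrays, all of SKOV3, differed by 0.51 and 1.88, and neither gene passed in either line. COL1A2 was well above background on 2 arrays and was not tested, while COL3A1, LUM and PDGFRB were not well above background on any array. Of 4 endothelial markers 1 to 3 were well above background, with sums of 0.172 to 0.375 over all arrays. The part of these signals in the results below was not tested. In RNA from whole cultures, fewer cells that make a transcript and less transcript per cell cannot be told apart.

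Between the lines, the cytokines differed in both directions in control cells. IL6, CCL2, CXCL2 and CXCL3 were lower in SKOV3 than in MDAH controls, and IL1A and IL1B were higher. In all, 6 of the 9 members tested passed (limma, all 8 arrays in 1 fit, adjusted p under 0.05), 2 higher and 4 lower, against 57.5% of the 15544 genes tested, 30.7% higher and 26.8% lower, so the share is near the background and the count says little about the members. Over all members, arrays of the lines did not overlap with SKOV3 higher for 3 (45.1% of all genes) and lower for 5 (40.1%). The 5 include CCL20, whose choice used the SKOV3 controls. CCL2, IL1A and IL1B, in both sets of counts, entered the tests only through the line where they were measured, so their calls are not read as results.

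IL6, a cytokine of acute inflammation, had signals of 7.23 and 7.26 for MDAH control cells but of 1.71 and 4.02 for SKOV3 control cells. The groups do not overlap and the MDAH arrays are alike, whereas the SKOV3 arrays differ by 2.32. The difference was -4.38 with a standard error of 0.65 (limma, adjusted p = 0.00134). CXCL2 had 7.01 and 6.95 in MDAH and 2.66 and 4.90 in SKOV3 on its brighter probe, a difference of -3.20 (limma, adjusted p = 0.00669), which was -2.09 without SKOV3 control 1 (limma, adjusted p = 0.00998). On its dimmer probe, a comparison added after the data had been seen, the difference was -1.88. CXCL3 had 1.90 and 1.84 in MDAH and -0.90 and 0.74 in SKOV3, a difference of -1.95 (limma, adjusted p = 0.0380), which missed the threshold without SKOV3 control 1 (-1.13, adjusted p = 0.188) and without either MDAH control (adjusted p = 0.136 and 0.121). CXCL2 and CXCL3 are closely related neutrophil attractants, and both stood lower on each SKOV3 control array than on each MDAH control array.

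CCL2, the monocyte attractant, was measured at -0.12 and 0.91 in the MDAH controls and was not well above background on any SKOV3 array. Taking the lowest measurable signal of each SKOV3 array as its bound, it was at least 20.8-fold lower in SKOV3. IL1A and IL1B showed the reverse. Both were not well above background on any MDAH array, whereas IL1A stood at -0.38 and 2.52 and IL1B at 0.17 and 3.26 in the SKOV3 controls. IL1A was at least 61.6-fold higher and IL1B at least 96.3-fold higher in SKOV3. These bounds rest on SKOV3 controls that differ, and with control 1 or control 2 alone they were 22.6-fold and 168-fold for IL1A and 33.1-fold and 281-fold for IL1B. CCL2, IL1A and IL1B entered the tests only through the line where they were measured. Their p-values, which belong to the signals as measured and not to the bounds, are not given.

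CXCL1, CXCL5 and CXCL8 did not pass between the lines. CXCL1 stood at 8.07 and 8.47 in MDAH control cells and at 6.90 and 8.50 in those of SKOV3, and the groups overlap. Its difference was -0.57 with a standard error of 0.62 (limma, adjusted p = 0.462). CXCL5 ranged only from -1.59 to -0.94 over all 8 arrays, and its window shares the letters gggaatttcc with that of CXCL1 but lacks the second match to the shorter pattern found there. CXCL8 stood at 1.63 and 1.12 in MDAH and at 0.21 and 3.07 in SKOV3, so that the single SKOV3 arrays lie on either side of MDAH. Without SKOV3 control 1 it was higher in SKOV3 by 1.69 (limma, adjusted p = 0.00628), and without SKOV3 control 2 it was lower, at -1.16 (limma, adjusted p = 0.0226). CCL20 had 0.40 and 0.51 in the MDAH controls and -2.50 and -1.03 in the SKOV3 controls, a difference of -2.22 that is given without a test because the SKOV3 controls took part in its choice.

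**Figure D1:**
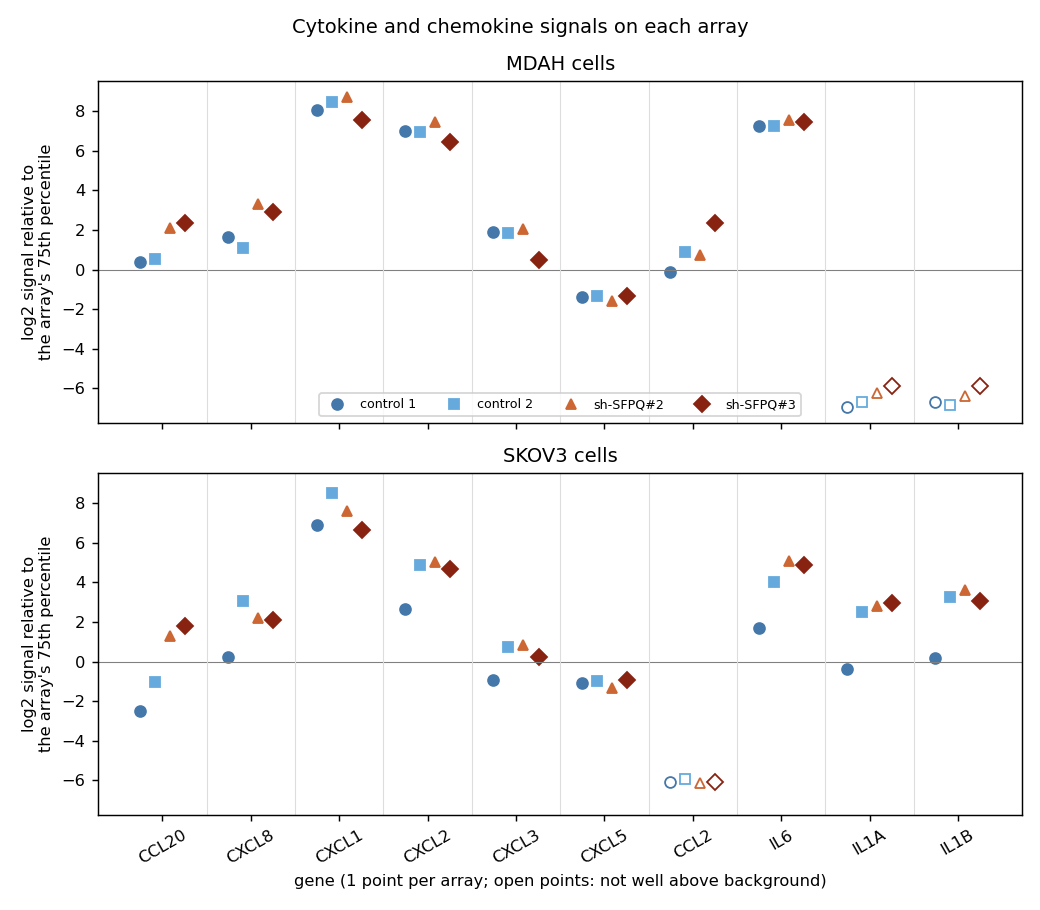
Signal of each gene (brightest probe) on each array, on the log2 scale after division by the array's 75th percentile, in MDAH cells (top) and SKOV3 cells (bottom), with 1 point per array and open points for probes not well above background. CCL20 is higher on both silenced arrays in each line, and SKOV3 control 1 (circles) lies below the other 3 SKOV3 arrays for CCL20, CXCL8, CXCL2, CXCL3, IL6, IL1A and IL1B.

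The control arrays of SKOV3 differed from each other in most of these genes. Control 2 exceeded control 1 by over 1 on the log2 scale in 8 of the 10 members, against 2.26% of all genes tested, and fell below it by that much in none, against 1.67%. The median difference of the members was 1.94 where that of all genes was 0.02. The differences were 3.09 for IL1B, 2.90 for IL1A, 2.85 for CXCL8, 2.32 for IL6, 2.23 for CXCL2, 1.64 for CXCL3, 1.60 for CXCL1 and 1.47 for CCL20. In the order of all 15544 genes from the highest difference down, IL1B was at place 13, IL1A at 18, CXCL8 at 19, IL6 at 33, CXCL2 at 37 and CCL20 at 151. CXCL5 differed by 0.07, and CCL2 was not well above background.

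In MDAH, control 2 exceeded control 1 by over 1 in 1 of the 10 members, CCL2 at 1.02, against 0.553% of all genes, and the median of the members was 0.05. Both probes of CXCL1 and of CXCL2 showed the SKOV3 difference, at 1.60 and 1.96 for CXCL1 and at 2.23 and 2.09 for CXCL2. IL1A, IL1B and CCL2 are printed in 10 spots on each array, and the SD over the spots was at most 0.62, in IL1A on an MDAH array where it was not above background. The 2 arrays are single samples of unknown identity among the controls, so the difference between them has no replicate, and its relation to the control hairpin was not tested.

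**Figure D2:**
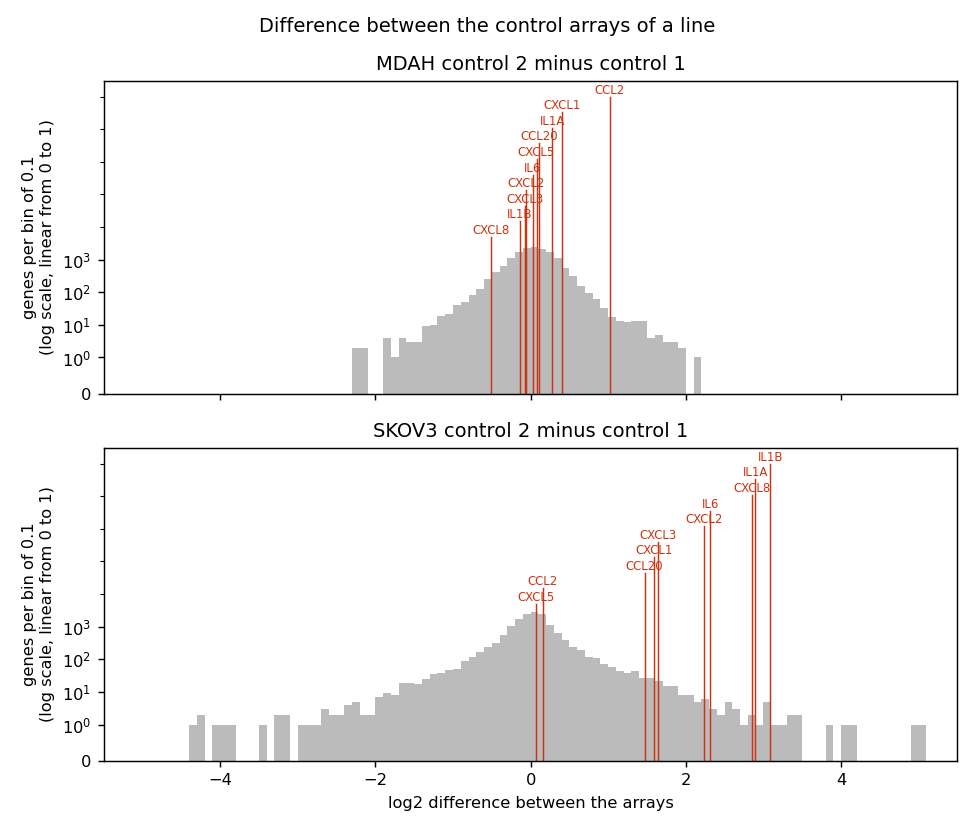
Distribution over 15544 genes of the log2 difference between the control arrays of MDAH (top) and SKOV3 (bottom), in bins of 0.1 with a log scale for the number of genes, and the 10 members as red lines whose heights only separate the names. In SKOV3 the lines of 8 members lie beyond 1 on the right, whereas in MDAH only that of CCL2 does, at 1.02.

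Some pathway genes also differed between the SKOV3 controls. Of 19 tested genes for NF-kappaB subunits and feedback regulators, 4 exceeded 1 between the SKOV3 controls and none fell below -1, against 2.26% and 1.67% of all genes, with a median of 0.33 against 0.02 for all genes. These were TNFAIP3, an inhibitor of NF-kappaB signalling, at 1.85, the adaptor TRAF1 at 1.41, the apoptosis inhibitor BIRC3 at 1.17 and the mitochondrial superoxide dismutase SOD2 at 1.15. Of the 18 other inflammatory cytokines tested, the growth factor CSF2 differed by 2.15 and LTB by -1.94, with a median of 0.27. CSF2 differed by 1.97 between the MDAH controls as well. Between the MDAH controls the NF-kappaB genes had a median of 0.28 against 0.04 for all genes, and none exceeded 1 in either direction. Between the SKOV3 controls the decay factor ZC3H12A differed by 1.08 and the inflammasome gene CASP1 by 1.01. None of 15 other chemokines and none of 7 receptors or antagonists exceeded 1 in either direction. These genes were named after their values were seen, and the differences between single arrays have no test.

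The CCL20 signal was higher on every silenced array than on every control array of its line. In MDAH, CCL20 had 0.40 and 0.51 in the controls, against 2.13 for sh-SFPQ#2 and 2.36 for sh-SFPQ#3. Both silenced arrays lie above both controls, and each of the 4 pairwise differences is between 1.61 and 1.97. The difference of 1.79, or 3.46-fold, had a standard error of 0.45 and did not pass over all genes (limma, adjusted p = 0.0960, unadjusted p = 0.00586).

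The adjusted p depended on arrays of the other line. The fit pools the spread over all groups, and the SD of CCL20 was 1.04 in the SKOV3 controls against 0.08 and 0.17 in the MDAH groups. Without SKOV3 control 1 or without SKOV3 control 2 the same difference passed (limma, adjusted p = 0.0356 in both cases), as it did with the MDAH arrays alone (limma, adjusted p = 0.0357). Over the other alternatives its adjusted p ranged from 0.0293 to 0.423 and the difference from 1.64 to 1.91.

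None of the 10 members passed in MDAH, against 2.03% of all genes (0.418% higher and 1.61% lower), and 1, CCL20, had an unadjusted p under 0.05, as did 23.1% of all genes. Silenced and control arrays did not overlap, with silenced higher, for CCL20, CXCL8, IL6, IL1A and IL1B, which is 5 of 10 against 35.6% of all genes, and none of the members was lower without overlap, against 21.4%. The median difference of the members was 0.46 and that of all genes 0.10. IL1A and IL1B, which are counted in the 5 and in the median, were not well above background on these arrays. Their small differences carry no level, so the count and the median are not read as a shift of the members. Of the members that were measured, CXCL1, CXCL2, CXCL3 and CXCL5 had differences below 0.

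CXCL8, the neutrophil attractant whose promoter SFPQ is known to occupy, had 1.63 and 1.12 in MDAH control cells and 3.30 and 2.93 in silenced cells. Both silenced arrays are higher by at least 1.30. The difference of 1.74 had a standard error of 0.81 and did not pass (limma, adjusted p = 0.251), the SD in the SKOV3 controls being 2.02. With the MDAH arrays alone and in the other alternatives that left out no single array, CXCL8 also failed (limma, adjusted p = 0.068 to 0.288). It passed only without SKOV3 control 1 or 2, in fits that leave 1 array in that group. IL6 in MDAH stood at 7.23 and 7.26 in controls and 7.57 and 7.45 in silenced cells, with a difference of 0.27 (limma, adjusted p = 0.829).

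Of the remaining chemokines of MDAH, CXCL1, CXCL2, CXCL3 and CCL2 differed between the hairpins, while CXCL5 differed by only 0.28. CXCL1 stood at 8.07 and 8.47 in controls, 8.74 for sh-SFPQ#2 and 7.57 for sh-SFPQ#3. CXCL2 had 7.01 and 6.95 in controls, 7.44 for sh-SFPQ#2 and 6.46 for sh-SFPQ#3, and CXCL3 had 1.90, 1.84, 2.03 and 0.50 in the same order. In all 3 genes the sh-SFPQ#2 array is above both controls and the sh-SFPQ#3 array below them. CCL2 went the other way, at -0.12 and 0.91 in controls, 0.73 for sh-SFPQ#2 and 2.37 for sh-SFPQ#3. From sh-SFPQ#2 to sh-SFPQ#3 the difference was -1.17 for CXCL1, -0.98 for CXCL2, -1.53 for CXCL3 and 1.64 for CCL2, and over 1 in either direction for 3 of the members against 2.84% of all genes higher and 5.24% lower. In SKOV3 no member differed by over 1 between the hairpins on its brightest probe, against 3.09% of all genes higher and 3.8% lower. The nearest was CXCL1 at -0.94. Its dimmer probe did differ by over 1, at 5.11 for sh-SFPQ#2 and 3.87 for sh-SFPQ#3. With 1 array per hairpin and line these differences have no test. The MDAH sh-SFPQ#3 array had the lowest 75th percentile of all arrays, 244, against 405 for MDAH sh-SFPQ#2. It also had the fewest probes well above background, 47.7%. The part of this in the differences between hairpins was not tested.

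In SKOV3, CCL20 stood at -2.50 and -1.03 in the controls, at 1.31 for sh-SFPQ#2 and at 1.82 for sh-SFPQ#3. These are the values that led to its choice. The groups do not overlap, the difference was 3.33 with a standard error of 0.45, and it corresponds to 10.1-fold. Against control 2 alone, the higher control, the silenced arrays still stood 2.34 and 2.85 higher, and against control 1 they stood 3.81 and 4.32 higher. Over the alternatives the SKOV3 difference lay between 2.56 and 4.07. In group means CCL20 was ordered as 2.24 ± 0.17 in silenced MDAH, 1.57 ± 0.36 in silenced SKOV3, 0.45 ± 0.08 in MDAH controls and -1.77 ± 1.04 in SKOV3 controls (SD, n = 2 each), and no neighbours in this order overlap.

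The other SKOV3 values depended on the control used as reference. Both silenced arrays exceeded control 1 by over 1 in 7 of the 10 members, which were CCL20, CXCL2, CXCL3, CXCL8, IL6, IL1A and IL1B, against 2.71% of all genes. Both exceeded control 2 by over 1 in 1 member, CCL20, against 2.25% of all genes. This comparison with single controls was added after the data had been seen. The SKOV3 counts include CCL20, which was chosen by the SKOV3 contrast, so the shares beside them are no test. CXCL2 is counted by its brighter probe. On its dimmer probe sh-SFPQ#3 stood at 3.37, against 2.86 in control 1. In MDAH the count was 2 members, CCL20 and CXCL8, against either control, with 1.32% of all genes against control 1 and 0.759% against control 2. No member was lower by over 1 on both silenced arrays, against 4.17% and 3.78% of all genes for MDAH controls 1 and 2 and 2.79% and 2.82% for those of SKOV3.

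IL6 stood at 1.71 and 4.02 in the SKOV3 controls and at 5.06 and 4.87 in the silenced cells, so that the silenced arrays are above both. The difference of 2.10 (standard error 0.65) became 1.04 and 0.84 for the single hairpins against control 2. IL1A stood at -0.38 and 2.52 in controls and at 2.81 and 2.95 in silenced cells, with 0.29 and 0.43 left against control 2. IL1B had 0.17, 3.26, 3.61 and 3.08 in the same order, and its groups overlap.

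The CXC chemokines of SKOV3 did not separate. CXCL8 stood at 0.21 and 3.07 in controls and at 2.21 and 2.09 in silenced cells, which lie between the controls. CXCL1 had 6.90 and 8.50 in controls, 7.61 and 6.67 in silenced cells. CXCL2 had 2.66, 4.90, 5.03 and 4.67, and CXCL3 had -0.90, 0.74, 0.85 and 0.23. Against control 2 the silenced arrays were lower, at -0.86 and -0.98 for CXCL8 and at -0.89 and -1.83 for CXCL1, whereas against control 1 CXCL8 was higher by at least 1.88. The mean difference of CXCL2, 1.07, was -0.04 without SKOV3 control 1. The probes of CXCL2 disagreed, since the dimmer one stood at 2.86 and 4.95 in controls and at 4.28 and 3.37 in silenced cells, which lie between the controls. The difference of CXCL5 was -0.09.

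In SKOV3, silenced arrays above both controls were found for CCL20, IL6 and IL1A, which is 3 of 10 members against 25.9% of all genes. CCL2 was lower without overlap, at levels not well above background, against 32.1% of all genes. The median difference of the members was 0.85 and that of all genes -0.04. The count of 3 and this median include CCL20, which was chosen by this contrast, and the median depends on control 1. Against control 2 alone, both silenced arrays were higher for CCL20, IL6 and IL1A. They were lower for CXCL1, CXCL8 and, not well above background, CCL2, and lay on either side of it for the other members. The difference between the lines in the response was 1.54 for CCL20 (standard error 0.64), 1.83 for IL6 (0.92) and -1.23 for CXCL8 (1.15), and is given without a test because it contains the values that chose CCL20. Without SKOV3 control 1 that of CCL20 was 0.81 and that of CXCL8 was -2.66, and without SKOV3 control 2 they were 2.27 and 0.20.

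**Figure D3:**
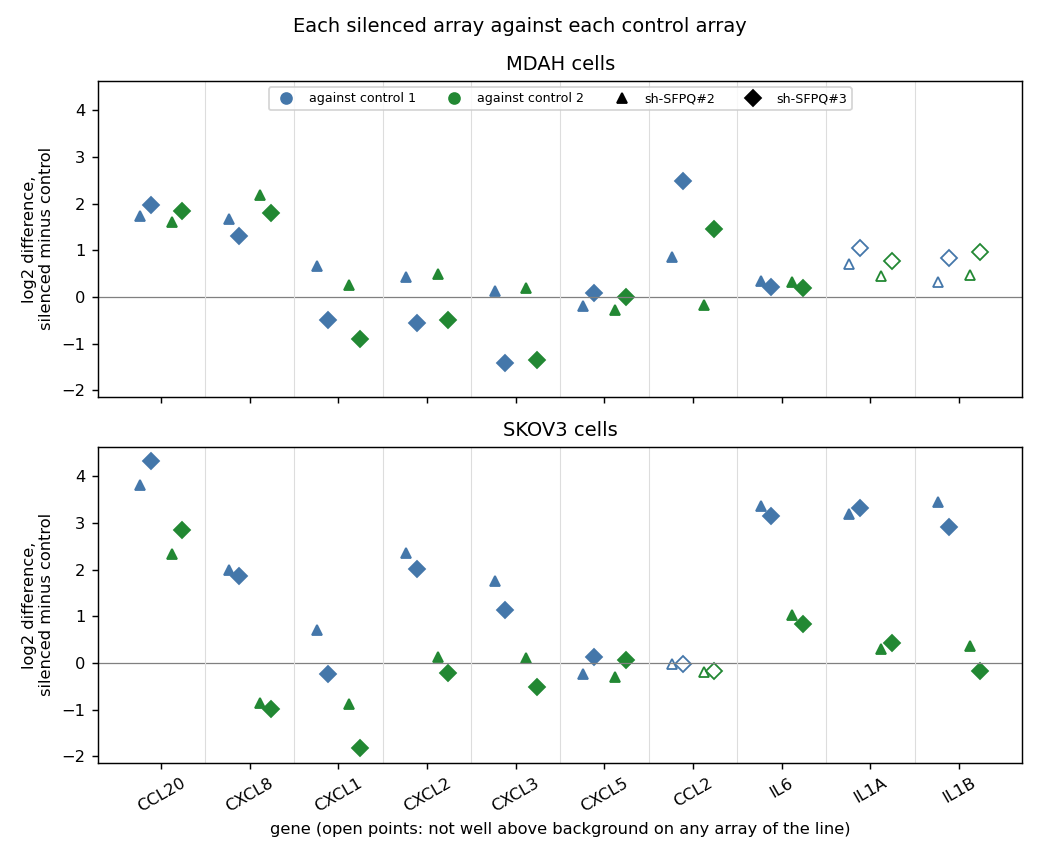
Log2 difference of each silenced array from each control array of its line, for MDAH (top) and SKOV3 (bottom), with blue points against control 1, green points against control 2, triangles for sh-SFPQ#2 and diamonds for sh-SFPQ#3. CCL20 is above 0 in all 8 comparisons, from 1.61 to 4.32, and the blue and green points of SKOV3 lie apart for all genes but CXCL5 and CCL2.

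Few other genes of the pathway passed on silencing. In MDAH, none of the 15 other chemokines, 18 other inflammatory cytokines, 7 receptors and antagonists, 9 inflammasome genes, 19 NF-kappaB genes, 13 transcription factors and 11 mRNA decay factors tested passed. Of these 92 genes 13, or 14.1%, had an unadjusted p under 0.05 in MDAH, against 23.1% of all genes, and 26, or 28.3%, had one in SKOV3, against 19.5%. In SKOV3, 0.997% of all genes passed (0.425% higher and 0.573% lower), and of these lists TNF and ATF3 did. TNF, the cytokine that activates NF-kappaB, stood at -0.23 and 0.40 in SKOV3 controls and at 2.01 and 1.99 in silenced cells, a rise of 1.92 (limma, adjusted p = 0.0472). In MDAH it stood at 5.48 and 6.12 in controls and 6.01 and 5.60 in silenced cells (limma, adjusted p = 0.998). ATF3, a stress-induced transcription factor, stood at 2.31 and 2.76 in SKOV3 controls and at 4.09 and 4.40 in silenced cells, a rise of 1.71 (limma, adjusted p = 0.0299), and the MDAH difference was 0.81 (limma, adjusted p = 0.104). The TNF call was lost on leaving out any single array, and the ATF3 call was lost without SKOV3 control 1. Without that control the difference was 1.60 for TNF and 1.49 for ATF3.

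Among the NF-kappaB genes 16 of 19 were above 0 in MDAH and 17 of 19 in SKOV3, and none passed in either line. Their medians were 0.25 and 0.44 against 0.10 and -0.04 for all genes, whose share above 0 was not counted. The SKOV3 values include control 1, where TNFAIP3, TRAF1, BIRC3 and SOD2 stood 1.15 to 1.85 lower than in control 2. The transcription factors of cytokine genes had medians of 0.34 in MDAH and 0.45 in SKOV3, and the mRNA decay factors, which act on the stability of cytokine transcripts, 0.08 and -0.15. The receptors had medians of 0.06 and 0.25. CCR6, named here as the receptor of CCL20, stood at -0.03 and -0.04 in MDAH controls and at 0.38 and 0.09 in SKOV3 controls, with differences of -0.13 (limma, adjusted p = 0.680) and 0.41 (limma, adjusted p = 0.266). CXCR2, the receptor of the CXCL members, was not well above background on any array and was not tested.

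Between the control cells of the lines 58 of the 92 genes of these lists passed, or 63%, which is near the 57.5% of all genes (30.7% higher and 26.8% lower), so the counts below describe the lists and set none of them apart. Of the 19 NF-kappaB genes 3 were higher and 11 lower in SKOV3 than in MDAH controls. Among them ICAM1, a leucocyte adhesion molecule, was at least 149-fold lower. BIRC3 differed by -4.03, the kinase CHUK by -2.70 and the inhibitor NFKBIE by -2.35. Of the 18 cytokines 3 were higher and 10 lower, with TNF at -5.72 (limma, adjusted p = 1.52e-05), LTB at -4.63, IL17C at least 3.89-fold lower and the inflammasome product IL18 at 5.17. Caspase-1, which matures IL1B, was at least 4.73-fold higher in SKOV3. Of the receptors IL1RAP was higher by 3.47, IL6R by 1.31, and IL1R1 stood at -1.63. IL1R2, a decoy receptor, was at least 1.34-fold lower and passed in only 6 of 17 alternatives. Of the other chemokines 3 were higher and 7 lower, with CCL3 at least 9.40-fold and CX3CL1 at least 7.55-fold lower and CCL28 at least 13.2-fold and CCL26 at least 7.07-fold higher. Genes given as a fold bound were not well above background in the control cells of the lower line. They entered the tests through groups where they were higher, so their calls, which are in these counts, are not read as results. Their p-values, which belong to the signals as measured, are not given.

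The other pathway lists also held calls in both directions, beside the same shares of all genes. Of 9 inflammasome genes 3 were higher and 1 lower, CASP1 as above, NAIP at 1.02, GSDMD at 0.68 and CARD8 at -0.78. Of 13 transcription factors 2 were higher and 3 lower, with JUN at 3.47, ATF3 at -2.21, EGR1 at -1.08 and FOS at -1.01. Of 11 mRNA decay factors 6 were higher and 1 lower, with ZFP36L2 at 1.81, ELAVL1 at 1.22, RC3H2 at 1.17 and ZC3H12A, an RNase that cuts IL6 mRNA, at -1.47. Between the lines the groups also differ in position on the slide.

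The genes whose signals followed CCL20 most closely were not cytokines. After each gene was centred on its own mean, the root mean square difference from CCL20 over the 8 arrays was lowest for IQCH at 0.53, followed by ACTA1, RNF148, LINC00336, ZDHHC11, RRN3P2, SULT4A1 and OAS1 at 0.69, with a median of 1.65 over all genes. ZDHHC11 and SULT4A1 were well above background on all 8 arrays, and the other genes on 4 to 7 of them. SULT4A1 stood at -2.75 and -2.62 in MDAH controls, -0.23 and -0.09 in silenced MDAH, -3.70 and -2.39 in SKOV3 controls and -1.28 and -0.40 in silenced SKOV3. OAS1, an interferon-induced enzyme, was not well above background in SKOV3 control 1, and stood at -2.55 in control 2 and at -0.98 and -1.59 in silenced SKOV3. Among the other members CXCL8 came closest, at place 532 of 15543, with IL6 at 715 and CXCL2 at 739. This ranking is a description, and its points share the arrays.

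**Figure D4:**
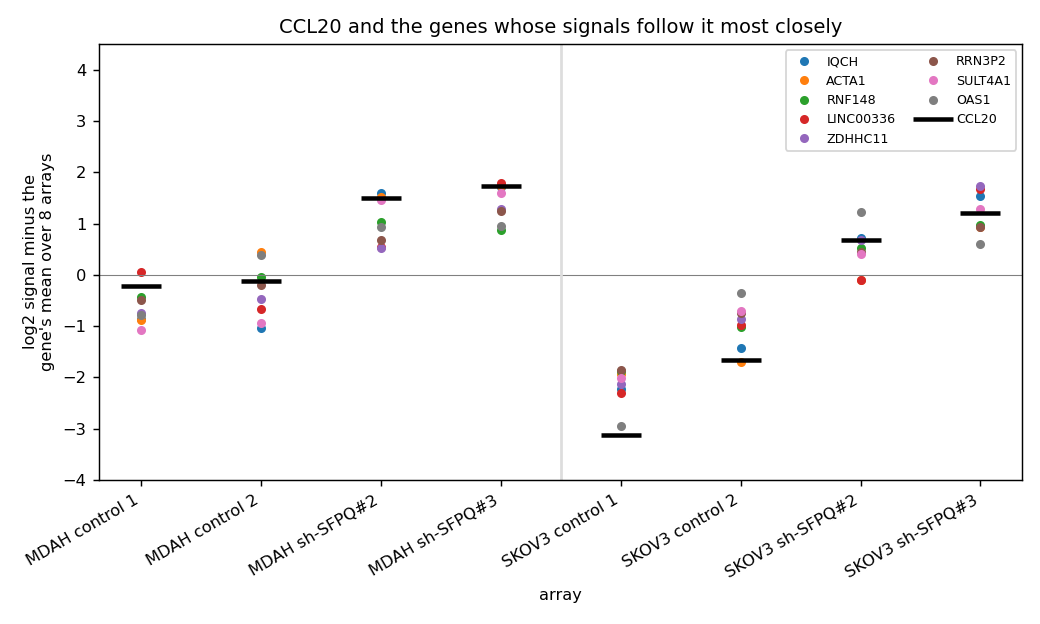
Log2 signal of CCL20 (black bars) and of the 8 genes with the smallest root mean square difference from it, each centred on its own mean over the 8 arrays. On the silenced arrays CCL20 lies above 0 and on all 4 control arrays below it, with the lowest point in SKOV3 control 1.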

How the data were processed

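Total RNA of 8 samples was labelled with Cy3 and hybridised to single-colour Agilent arrays. The deposited scanner files hold the intensity of each spot, background-subtracted and spatially detrended by Feature Extraction, for which the file headers of the authors give version 11.5.1.1 and the labels another, and the deposited log2 table of the authors equals quantile-normalized signals minus each probe's median. Here, the processed intensity was divided by the 75th percentile of its array and log2 transformed. Control and outlier spots were left out and replicate spots averaged. Probes were named by RefSeq accession (28167 of 29181 matched), the brightest probe stood for a gene, and 15544 genes passed the filter on dim probes. Groups came from the labels. All 8 arrays were fitted in 1 limma model (version 3.58.1, R 4.3.3) with Benjamini-Hochberg adjustment over all genes at 0.05. The steps were tested on simulated data. Alternatives changed the normalization, filter, probe rule, variance model and arrays, and the normexp alternative (offset 50) used median signals. The number of arrays limits precision. The members and lists were chosen with earlier results of these data known. Of each pathway list, the genes that passed a contrast were named, or the 4 with the largest change where more passed. The 8 genes closest to CCL20 were named too. Proteins were not used here.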

Additional observations from a re-analysis of the deposited data

How the results depend on the processing

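In MDAH, CCL20 passed with normexp and quantile normalization (1.64, adjusted p = 0.0293), with the arrays of the compared groups only (1.79, adjusted p = 0.0357) and without either SKOV3 control (limma, adjusted p = 0.0356). Leaving out single arrays gave 1.67 to 1.91 in MDAH and 2.60 to 4.07 in SKOV3. Genes passing in MDAH numbered 316, and 622 with normexp, 163 with the stricter filter, 143 with the compared groups only and 9 to 1091 without single arrays. In SKOV3 they numbered 155, and 322 with normexp, 39 without a filter, 273 with an intensity trend, 0 with the compared groups only by limma, and 13 to 595 without single arrays. Without adjustment 3033 genes had p under 0.05 in the full SKOV3 fit. Members passing in MDAH were 1 rather than 0 with normexp and with the compared groups only, and 0 to 2 without single arrays. With the replicate number as a block, 858 genes passed in MDAH and 688 in SKOV3, 0 members passed in MDAH and 6 between the controls, and the block changed no call of a member. Of the pathway lists it added CSF2 in MDAH (1.62, adjusted p = 0.0115) and LTB in SKOV3 (2.72, adjusted p = 0.0302). Deviations of same-numbered arrays correlated at 0.363 for silenced arrays, whose number names the hairpin, and at 0.0777 for controls, whose number marks nothing stated, so the numbers were not taken as pairs throughout. Centring on the median put 62.7% of the MDAH calls lower, against 79.4%, and moved the median of all genes from 0.10 to 0.21. Without SKOV3 control 1 and control 2 in turn, CXCL2 was -0.0428 and 2.19 for SKOV3 silencing and -0.0084 and 2.22 for the difference between lines, IL1A was -0.39 and 2.51 for that difference, and CXCL8 was -2.66 and 0.20 for it and 1.69 and -1.16 between the controls (limma, adjusted p = 0.00628 and 0.0226). TNF passed in 6 and ATF3 in 11 of 18 alternatives, and CCL2 in MDAH passed without sh-SFPQ#2 (1.97, adjusted p = 0.0484). The cause was not tested. The 2 arrays a group limit the precision, and probes not well above background gave bounds.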
